A study of Mus musculus with 6 samples.

Results

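The 8 genes described here, Csf1, Kitl, Csf1r, Csf2ra, Csf2rb, Csf3r, Kit and Flt3, encode growth factors of myeloid cells or receptors that bind such factors. They were taken by symbol from the gene rows of both pools and make up 8 of the 32285 genes measured. Messenger RNAs and surface antibody tags were counted together in single cells (CITE-seq) that had been sorted for CD45 from subcutaneous YUMM1.7 tumours, a mouse melanoma line. All mice were female C57BL/6J animals (strain label C57BL/6JRccHsd) aged 8 weeks, and every mouse, controls included, carried floxed Nr3c1 alleles (Nr3c1 fl/fl), the gene of the glucocorticoid receptor. LysM-Cre mice (LysM-Cre tg/wt, Nr3c1 fl/fl) carried in addition a Cre recombinase under the Lyz2 promoter, which is active in macrophages, monocytes and neutrophils, and the mice called floxed did not. The 4 conditions were LysM-Cre with anti-PD-1, LysM-Cre with isotype antibody, floxed with anti-PD-1 and floxed with isotype antibody, with 4 mice each. Antibody was dosed at 12.5 mg/kg from about day 7, and tumours were taken at day 28.

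CSF1 acts through the receptor tyrosine kinase CSF1R, on which monocytes and macrophages depend, and interleukin-34 is the other ligand of that receptor. GM-CSF binds a receptor made of a specific chain (Csf2ra) and a shared beta chain (Csf2rb), which also serves the interleukin-3 and interleukin-5 receptors, and G-CSF acts on neutrophils through CSF3R. Stem cell factor (Kitl) signals through KIT on mast cells and progenitors, and FLT3 responds to its own ligand and is needed for dendritic cell development.

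Antibodies of the surface panel bound the products of 3 of the receptor genes, and each was read from a tag of 15 bases. These tags are shown because every protein value below is a count of one of these sequences.
CD115 (CSF1R): ttccgttgttgtgag
CD117 (KIT): tgcatgtcatcggtg
CD135 (FLT3): gtagcaagattcaag
Listed promoter windows, given as 250 bases before to 50 bases after a transcription start, matched 6 of the 8 genes. These starts can differ from the RefSeq gene start (GRCm38.p6). The motif GAGGAA, a core bound by PU.1, was searched on both strands, with overlaps counted. It occurred in 28.3% of all 32851 windows and in those of 3 of the 6 genes, Csf2ra, Csf3r and Kit. The windows of a receptor chain of many myeloid classes (Csf2ra), of the receptor gene highest in neutrophils (Csf3r) and of a ligand gene of the fibroblast class (Kitl) are printed 5′ to 3′ on the gene's strand with the motif in capitals. They lie at chr19:61228369-61228668 on the minus strand, chr4:126024409-126024708 on the plus strand and chr10:100015571-100015870 on the plus strand. The Csf3r window lies inside the RefSeq gene, which begins at base 126023441, and the RefSeq Kitl gene begins at base 100015615. A match describes these letters and is not a binding site.
Csf2ra: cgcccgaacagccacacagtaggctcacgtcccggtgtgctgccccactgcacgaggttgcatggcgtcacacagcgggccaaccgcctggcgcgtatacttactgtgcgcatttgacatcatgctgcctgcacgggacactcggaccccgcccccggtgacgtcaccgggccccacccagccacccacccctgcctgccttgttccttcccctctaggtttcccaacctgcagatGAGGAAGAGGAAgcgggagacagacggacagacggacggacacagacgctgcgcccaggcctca
Csf3r: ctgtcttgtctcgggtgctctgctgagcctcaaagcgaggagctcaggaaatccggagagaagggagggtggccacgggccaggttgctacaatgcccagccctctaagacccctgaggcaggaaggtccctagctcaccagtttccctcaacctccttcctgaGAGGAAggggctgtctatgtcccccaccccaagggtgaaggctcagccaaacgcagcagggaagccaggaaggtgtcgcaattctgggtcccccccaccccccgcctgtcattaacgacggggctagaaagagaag
Kitl: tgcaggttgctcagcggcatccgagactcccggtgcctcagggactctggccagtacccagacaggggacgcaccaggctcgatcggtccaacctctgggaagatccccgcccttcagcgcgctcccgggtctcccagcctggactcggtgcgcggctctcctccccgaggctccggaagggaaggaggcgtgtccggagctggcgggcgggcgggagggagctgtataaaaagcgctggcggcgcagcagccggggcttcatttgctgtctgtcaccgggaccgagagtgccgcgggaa

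Of the sorted cells, 17239 were assigned to 1 mouse each, 134 to 3098 per mouse, with 1546045 to 29701640 gene UMIs (unique molecular identifiers, the counted molecules) per mouse. Cells were clustered without the 8 genes, and each class is named for the cell type its markers resemble, so that neutrophils below means neutrophil-like cells, and likewise for the others. Cluster 3, with 1010 cells led by Cxcl9, Ly6i, Chil3 and H2-Eb1, stayed unnamed. The fibroblast class held all 8 of its listed markers, and its pooled Ptprc (CD45) level was 58.4 CPM (UMIs of the gene per 1000000 UMIs of all genes), against 209 CPM or more in every other class. Its leading genes were Mgp, Crabp1, Col1a2 and Bgn. Whether its cells came from the host or from the injected tumour line was not tested. Floxed isotype mice 1 and 2 carried hashtags that the antibody table prints with the same sequence, and both belong to the same condition. They are counted as separate mice throughout, and whether their hashtags told them apart was not tested. The pools shared 805 barcodes, 21 of which were among the assigned cells of each pool. Nr3c1 averaged 35.1 ± 19.2 CPM in LysM-Cre macrophages and 62.3 ± 12.9 CPM in floxed macrophages (SD, n = 8 each). The labels give no deleted exon and counting was at the 3′ end, so this level is no direct check of the deletion. Macrophages of LysM-Cre isotype mouse 4, at 79.5 CPM, lay within the floxed range of 50.95 to 83.1 CPM, and changes named below that this mouse moves by over 1.5 times are given with and without it.

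Csf1, the main growth factor of macrophages, had its highest mean over mice in neutrophils and was also found in CD8 T cells and fibroblasts, while macrophages and monocytes, which carry its receptor, had little. Neutrophils averaged 327 ± 228 CPM (SD, n = 14 mice), from 115 to 938 CPM, and 147 CPM when hashtags were assigned by the margin rule, which takes the clearly highest hashtag of a cell. CD8 T cells averaged 60.6 ± 17.6 CPM and fibroblasts 60.5 ± 17.01 CPM (n = 15 each). Neutrophils exceeded CD8 T cells in 14 of 14 mice, by 2.25 on the log2 scale (exact two-sided sign-flip permutation test, adjusted p = 0.00244 over 80 pairs of neighbouring classes, the test used for all such pairs below). CD8 T cells were the higher of CD8 T cells and fibroblasts in 7 of 15 mice, so these neighbours were not separated (exact adjusted p = 1). CD4 T cells had 53.7 ± 39.2 CPM (n = 10), mast cells 35.7 ± 20.5 (n = 3) and regulatory T cells 32.8 ± 21.05 CPM (n = 9). Monocytes averaged 7.11 ± 2.86 CPM and macrophages 4.29 ± 3.43 CPM (n = 16 each), and regulatory T cells exceeded monocytes in 9 of 9 mice (exact adjusted p = 0.0284).

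Values of Csf1 in small classes and in single clusters, pooled over mice, are given as descriptions with no test. Basophils, only 33 cells over all mice, held 72 Csf1 UMIs, which is 665 CPM with an exact 95% Poisson interval of 520.1 to 837 that covers counting error only. Neutrophil cluster 9, with Cxcr2 among its leading genes, had 313 CPM, and neutrophil cluster 6, with Lcn2 and Ngp among its leading genes, had 128 CPM. Among CD8 T cells, cluster 12, with Ifng among its leading genes, had 136 CPM, cluster 5 had 61.7, cluster 20 had 26.2 and cluster 10, led by Xcl1, had 3.46 CPM. Depth differed between classes, with median UMIs of 2890 in neutrophils, 25157 in fibroblasts, 6063 in CD8 T cells and 12162.5 in macrophages. With each cell thinned to 2000 UMIs, 22.2% of neutrophils, 11.4% of fibroblasts and 9.901% of CD8 T cells had a Csf1 UMI, and 0.733% of macrophages. Unthinned, these shares were 26.5%, 59.9%, 22.4% and 3.33%.

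**Figure D1:**
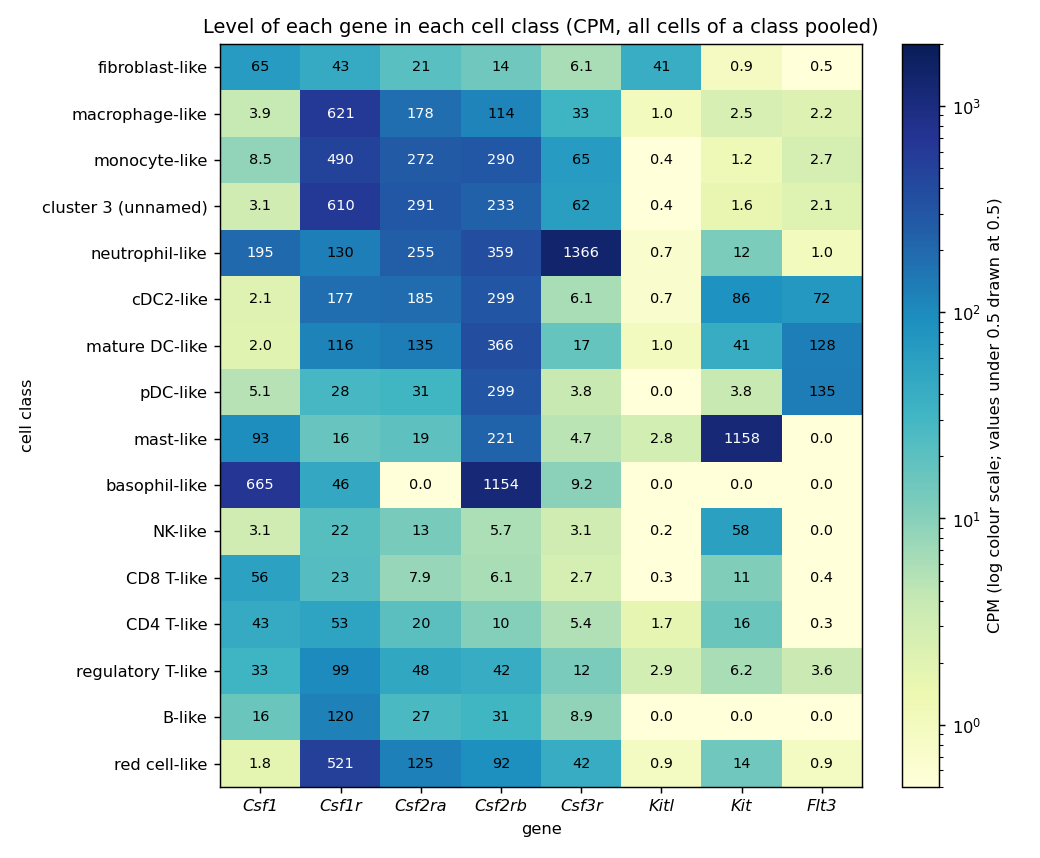
Level of each of the 8 genes in each cell class, as CPM pooled over all cells of the class and drawn on a log colour scale. Csf3r reaches its highest level in neutrophils, Kit in mast cells, Kitl in fibroblasts, and Csf1 in basophils (665 CPM) and neutrophils (195 CPM).

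Kitl, the ligand of KIT, was found mainly in fibroblasts. Fibroblasts ranged from 30.2 to 73.5 CPM around a mean of 43.04 ± 14.9 (n = 15), and they held 91.9% of all 1224 Kitl UMIs. Mast cells came next at 4.02 ± 4.25 CPM, which rests on 2 Kitl UMIs in 83 cells, so their place in the order is uncertain. They could be compared in 3 mice only, where the exact test cannot go below p = 0.25. Thinned to 2000 UMIs, 6.799% of fibroblasts had a Kitl UMI (48.1% unthinned), against 0% of CD8 T cells (0.191% unthinned).

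Among classes measured in more than 1 mouse, Csf1r, the receptor of CSF1 and interleukin-34, was highest in cluster 3 and in macrophages, followed by monocytes. Cluster 3 averaged 609 ± 97.4 CPM (n = 14) and macrophages 609 ± 94.6 CPM (n = 16), which were not separated (exact adjusted p = 0.932). Monocytes had 507 ± 61.6 CPM, and macrophages were above them in 14 of 16 mice (exact adjusted p = 0.00293). Dendritic cells of the cDC2 class, at 179 ± 27.97 CPM (n = 10), lay below monocytes in 10 of 10 mice (exact adjusted p = 0.0223). Neutrophils had 133 ± 34.1 CPM (n = 14), not separated from cDC2 (exact adjusted p = 0.132). From neutrophils downwards no neighbouring pair passed: regulatory T cells had 93.3 ± 48.2 CPM, fibroblasts 42.9 ± 27.8, CD4 T cells 42.4 ± 33.3, CD8 T cells 21.7 ± 9.596 and NK cells 19.4 ± 8.84 CPM. The 9 macrophage markers listed summed to 1571 to 7646 CPM in regulatory T cells and 1694 to 9834 CPM in neutrophils. Their part in the receptor levels of these classes, here and below, was not tested. Thinned, a Csf1r UMI was found in 68.2% of cluster 3, 66.02% of macrophages and 60.6% of monocytes (90.99%, 88.04% and 95.02% unthinned), against 4.58% of NK cells (15.1% unthinned), which should lack the gene. Among clusters of macrophages, cluster 8, led by Fcrls, Pf4, Gas6 and Mrc1, had 789 CPM and cluster 17, led by Pf4, Arg1 and Mmp12, had 634 CPM.

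Both chains of the GM-CSF receptor were spread over several myeloid classes. Csf2ra, the chain specific to GM-CSF, had 269.9 ± 34.1 CPM in cluster 3, 268 ± 14.9 in monocytes and 265 ± 57.5 in neutrophils, and neither neighbouring pair was separated (exact adjusted p = 0.985 and 0.8698). Class cDC2, at 186 ± 21.3 CPM, lay below neutrophils in 8 of 9 mice (exact adjusted p = 0.0481), and macrophages had 184 ± 23.02 CPM. Regulatory T cells, at 46.2 ± 16.1 CPM, lay below macrophages in 9 of 9 mice (exact adjusted p = 0.0284).

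Csf2rb, the shared signalling chain, had its highest means in neutrophils at 381 ± 88.7 CPM, cDC2 at 316 ± 57.8 and monocytes at 285 ± 25.2 CPM. These neighbours were not separated (exact adjusted p = 0.06696 and 0.198). Cluster 3, at 226 ± 34.4 CPM, lay below monocytes in 14 of 14 mice (exact adjusted p = 0.00244). Mast cells had 188 ± 61.3 CPM (n = 3) and macrophages 121 ± 20.3 CPM, macrophages lying above regulatory T cells in 9 of 9 mice (exact adjusted p = 0.0284).

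Basophils and plasmacytoid dendritic cells had Csf2rb with little or no Csf2ra. Pooled basophils held 125 Csf2rb UMIs (1154 CPM, exact 95% Poisson interval 961 to 1375) and 0 Csf2ra UMIs, a count of 0 with an upper limit of 34.1 CPM by the same interval. Plasmacytoid dendritic cells had 299 CPM of Csf2rb and 30.7 CPM of Csf2ra, and mature dendritic cells had 366 and 135 CPM. Csf2rb2, the mouse beta chain of the interleukin-3 receptor, had 443 CPM in basophils, 343 in plasmacytoid dendritic cells and 130.04 in mast cells. Csf2rb and Csf2rb2 are close copies, so reads could have been divided between them in counting, and their levels are uncertain to that extent.

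Csf3r, the G-CSF receptor, had a single high class, the neutrophils. They averaged 1645 ± 288 CPM (n = 14, from 1107 to 2171), and cluster 3 had 65.6 ± 26.4, monocytes 61.2 ± 14.1 and macrophages 34.95 ± 14.3 CPM. Neutrophils exceeded cluster 3 in 14 of 14 mice, by 4.70 on the log2 scale (exact adjusted p = 0.00244). Monocytes exceeded macrophages in 15 of 16 mice (exact adjusted p = 0.00244), and macrophages exceeded regulatory T cells, at 11.3 ± 5.97 CPM, in 9 of 9 mice (exact adjusted p = 0.0284). Thinned, 87.5% of neutrophils had a Csf3r UMI (90.6% unthinned), against 11.9% of monocytes and 0.359% of NK cells (43.4% and 2.21% unthinned). Within neutrophils, cluster 9 had 1763 CPM and cluster 6 had 1142 CPM. Monocyte cluster 7, with Lcn2 and S100a8 among its leading genes, had 94.4 CPM.

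Kit, the stem cell factor receptor, was highest in mast cells, with lower levels in cDC2 and NK cells. The mast cells of the 3 mice with enough of them had 1241 CPM in LysM-Cre isotype mouse 4, and 1117 and 978 CPM in floxed isotype mice 1 and 2. Class cDC2 averaged 93.3 ± 21.95 CPM (n = 10) and NK cells 71.1 ± 31.6 CPM (n = 14), which were not separated (exact adjusted p = 0.0955). NK cells exceeded CD4 T cells, at 20.5 ± 17.5 CPM, in 10 of 10 mice (exact adjusted p = 0.0223). CD8 T cells had 12.4 ± 7.65 and neutrophils 9.803 ± 11.2 CPM. Basophils held 0 Kit UMIs, with an upper exact 95% Poisson limit of 34.1 CPM. Thinned shares were 82.4% of mast cells, 11.8% of cDC2 and 9.96% of NK cells (94.4%, 50.4% and 30.1% unthinned), against 0.155% of monocytes (1.11% unthinned).

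Flt3 was found at clear levels in the 3 dendritic classes. Class cDC2 averaged 71.3 ± 19.4 CPM (n = 10), and pooled plasmacytoid and mature dendritic cells had 135 CPM (exact 95% Poisson interval 110.03 to 163) and 128 CPM (107 to 152). Regulatory T cells, next in the order, had 2.696 ± 4.73 CPM and lay below cDC2 in 7 of 7 mice, which did not pass after adjustment (exact adjusted p = 0.0735). Thinned, 28.05% of plasmacytoid, 22.8% of mature and 12.4% of cDC2 cells had a Flt3 UMI (70.7%, 55.3% and 45.3% unthinned), against 0% of NK cells.

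**Figure D2:**
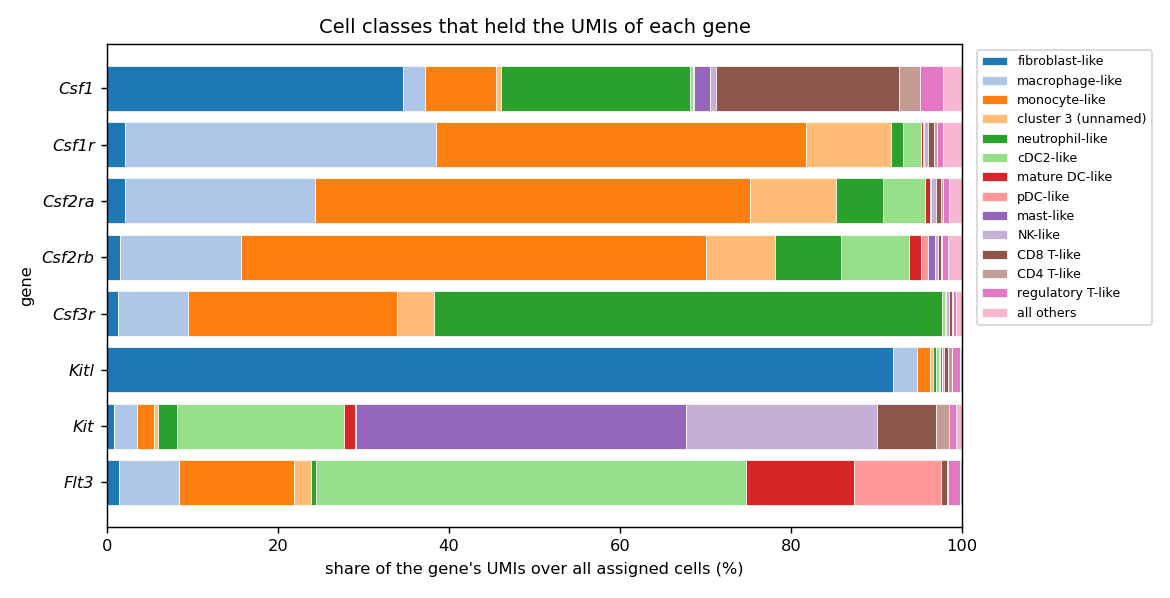
Share of each gene's UMIs over all assigned cells (percent) held by each cell class, 1 stacked bar per gene. Fibroblasts hold 91.9% of Kitl, neutrophils 59.4% of Csf3r, and monocytes 50.9% of Csf2ra and 54.3% of Csf2rb.

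The share of a gene's transcripts held by a class depends on the number and depth of its cells as well as on its level. Fibroblasts held 34.6% of the 5161 Csf1 UMIs, neutrophils 22.1% and CD8 T cells 21.4%. Monocytes held 43.3% and macrophages 36.4% of the 57552 Csf1r UMIs. Mast cells, 178 of the 17239 cells, held 38.6% of the 3163 Kit UMIs, NK cells 22.4% and cDC2 19.6%. Class cDC2 held 50.3% of the 1033 Flt3 UMIs and monocytes 13.5%.

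The genes with the class pattern most like each of the 8 were found among 11368 genes by Pearson's r of class means over 12 classes, which share libraries, so r is a description. Csf1r was nearest to P2ry6 (r = 0.98), Cybb (r = 0.98) and Lair1 (r = 0.98), and Csf2ra had Spi1, which encodes PU.1, and Gm34084 among its nearest genes (r = 0.98 and 0.98). Csf2rb was nearest to Csf2rb2 (r = 0.97), Prkcd (r = 0.95) and Basp1 (r = 0.94). Csf3r was nearest to Cpeb2 (r = 0.97), Ets2 (r = 0.97) and Fpr1 (r = 0.97), the last a receptor for formyl peptides. Flt3 was nearest to Zfp366 (r = 0.98), Gm43914 (r = 0.97) and Ffar4 (r = 0.96), and Kitl to 1110065P20Rik (r = 0.96), Pfn2 (r = 0.95) and Bod1 (r = 0.95). Csf1 was nearest to C920021L13Rik (r = 0.94), Anxa11 (r = 0.89) and Ramac (r = 0.88), and Kit to Gm9887 (r = 0.87), Gcsam (r = 0.79) and Chn2 (r = 0.79).

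Partner ligands outside the 8 genes were held mainly by lymphocytes, neutrophils or fibroblasts. Csf2, encoding GM-CSF, had 553 UMIs, of which CD4 T cells held 36.2%, CD8 T cells 32.01% and NK cells 20.4%. Csf3, encoding G-CSF, had 301 UMIs, with 76.4% in neutrophils, the class with the most Csf3r. Flt3l had 3126 UMIs, with 32.9% in CD8 T cells and 27.5% in NK cells. Il34 had 719 UMIs, with 96.5% in fibroblasts, which thus held transcripts of both CSF1R ligands and of Kitl. Il5 had 52 UMIs, with 88.5% in CD4 T cells.

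Surface KIT was highest where Kit RNA was, and CD115 tags were most frequent on macrophages and fibroblasts among classes measured in more than 1 mouse. CD117 made up 78613 CPM of all antibody tags in pooled mast cells, 3655 in NK cells, 2005 in cDC2 and 581 in basophils. CD115 made up 857 CPM in macrophages, 771 in fibroblasts and 360.3 in monocytes, and it averaged 93.7 ± 42.1 CPM in neutrophils. Control antibodies reached 444 CPM (hamster) and 380.4 CPM (rat IgG1) in macrophages, and 248 and 184 CPM in fibroblasts. NK cells, which should lack Csf1r, had 406 CPM of CD115, against 162 and 195 CPM of the same controls. The red cell class, measured only in LysM-Cre isotype mouse 4, had 1524 CPM of CD115 in 21 cells. Pooled over all mice this class had 521 CPM of Csf1r RNA, with Fcrls and Pf4 among its leading genes, as in macrophage cluster 8. The part of macrophage transcripts in its values was not tested. CD135 had 84.3 CPM in cDC2 and 119 CPM in mature dendritic cells. In the latter, the hamster control had 119, rat IgG1 132 and rat IgG2b 26.4 CPM. FLT3 protein was thus not detectable above the hamster and rat IgG1 controls.

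**Figure D3:**
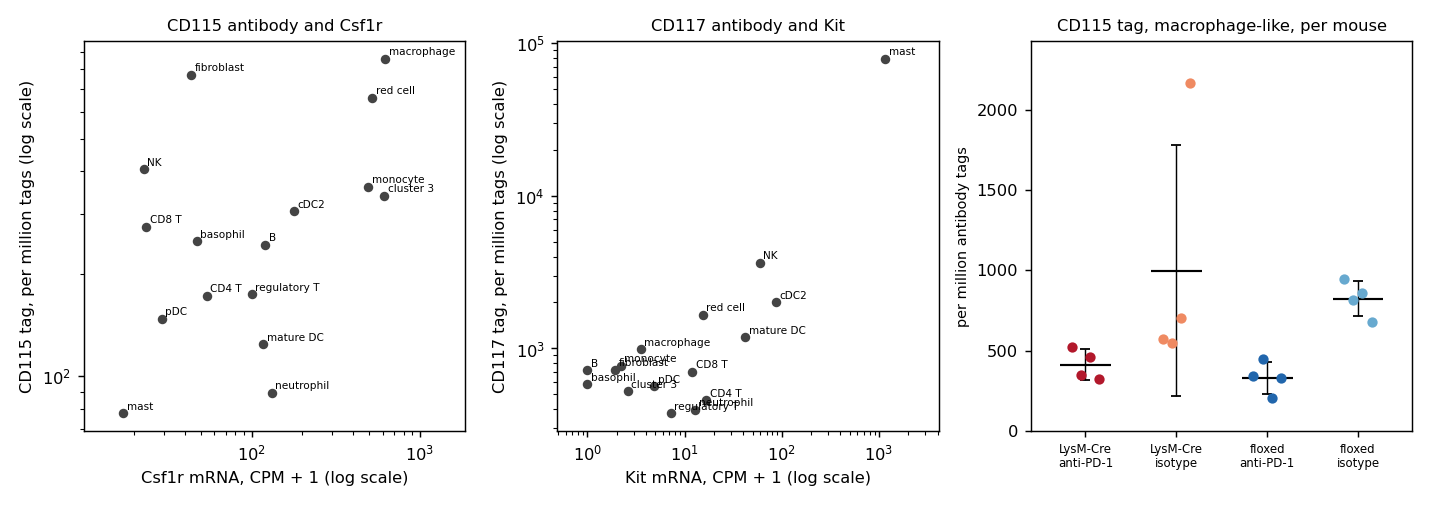
Antibody tags (CPM of all antibody tags) against RNA (CPM plus 1), both on log scales, for each class pooled over mice, for CD115 with Csf1r and CD117 with Kit, and CD115 on macrophages per mouse by condition (points; bars are mean and SD). On macrophages, CD115 spans 322 to 526 and 205 to 451 CPM in LysM-Cre and floxed mice on anti-PD-1, against 550.1 to 2164 and 679 to 944 CPM in LysM-Cre and floxed mice on isotype.

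Changes between conditions were tested within each class on counts summed per mouse (edgeR quasi-likelihood test, adjusted over all genes of a class and comparison). None of the 8 genes passed adjusted p 0.05 in any of the 7 comparisons, so the changes named below are those with an unadjusted p of at most 0.05. LysM-Cre against floxed on isotype gave 3 such pairs of gene and class among 40 tested (smallest edgeR adjusted p = 0.944), and 0.00151% of all gene tests passed there. LysM-Cre against floxed on anti-PD-1 gave 4 of 21 (smallest edgeR adjusted p = 0.248; 0% of gene tests passed), and DESeq2 called 1 pair. Anti-PD-1 against isotype gave 3 of 26 in floxed mice (smallest edgeR adjusted p = 0.3695; 0.0505% passed) and 4 of 30 in LysM-Cre mice (smallest edgeR adjusted p = 0.365; 0.00397% passed). The interaction, the anti-PD-1 change in LysM-Cre mice minus that in floxed mice, gave 3 of 21 (smallest edgeR adjusted p = 0.7205; 0% passed). Averaged over the other factor, genotype gave 4 of 21 (smallest edgeR adjusted p = 0.503; 0.00929% passed) and antibody 3 of 21 (smallest edgeR adjusted p = 0.342; 0.17% passed). DESeq2 called 0 pairs in these other 6 comparisons, while edgeR without the filter on low counts called 1 to 7 pairs per comparison. The shares of gene tests above are from edgeR with the filter. Calls by DESeq2 or without the filter have no share of all genes beside them and are not read as results. Over all genes, 3.56% to 10.6% of tests had an unadjusted p of at most 0.05, against 7.5% to 19.1% of the pairs of the 8 genes. Comparisons of the same groups share mice and are not independent.

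**Figure D4:**
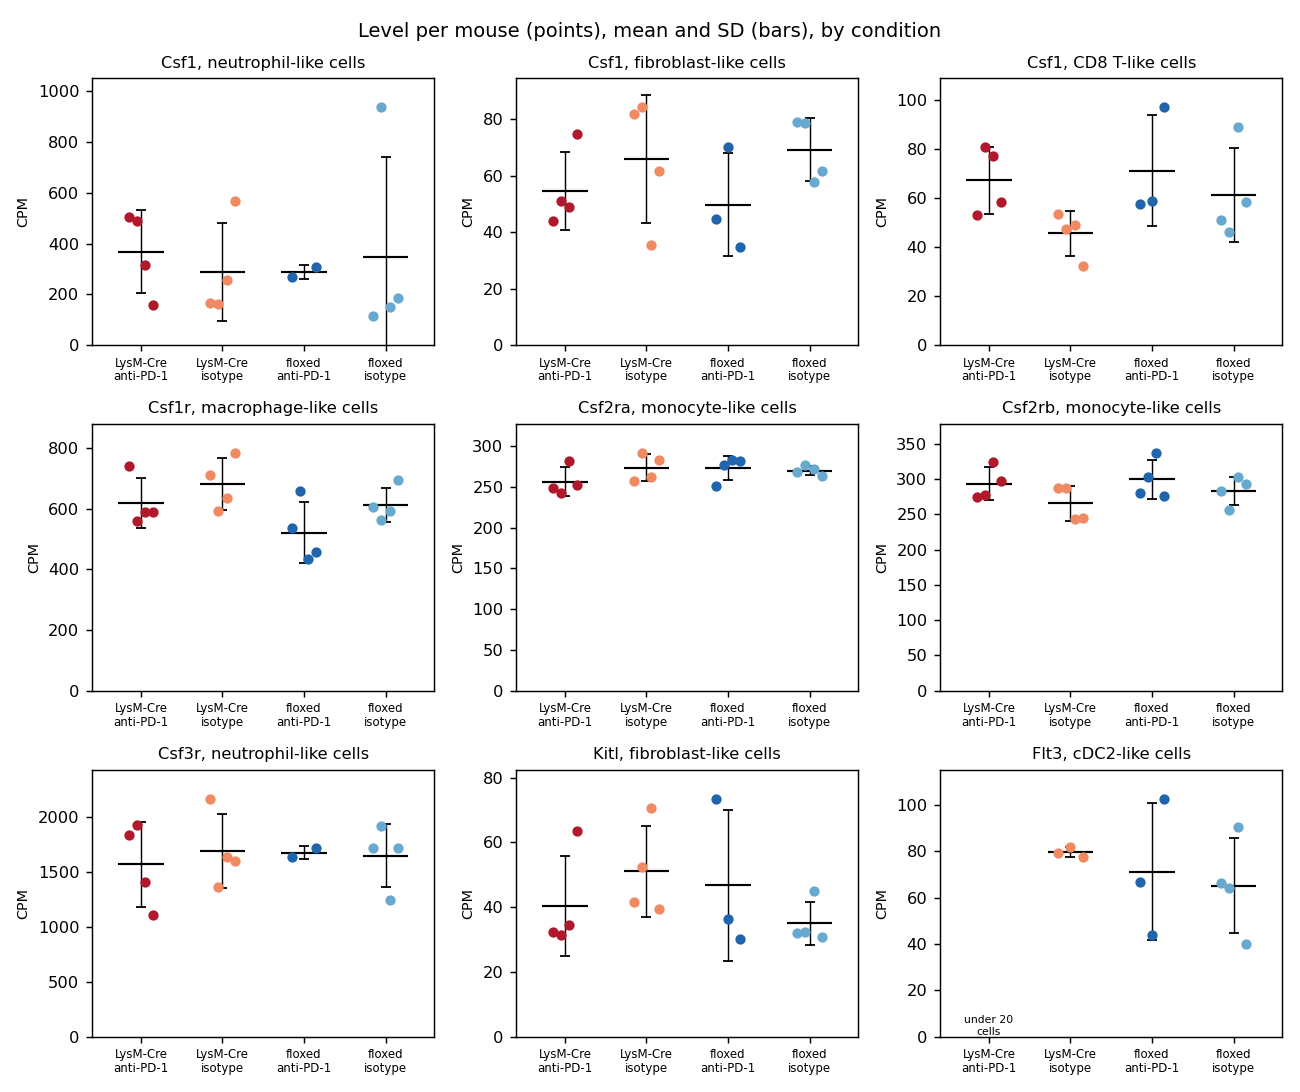
CPM per mouse (points) by condition, with mean and SD (bars), for 9 pairs of gene and class, such as Csf1 in neutrophils and Csf3r in neutrophils. Floxed isotype mouse 2 stands at 938 CPM of Csf1 in neutrophils, and Csf2ra in monocytes stays between 242 and 292 CPM in all 16 mice.

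In the classes where each gene was highest and could be tested, the conditions overlapped. Csf1 in neutrophils had 506, 488, 316 and 158 CPM in LysM-Cre mice on anti-PD-1, 165, 160.4, 255 and 567 in LysM-Cre mice on isotype, 269 and 308 in the 2 floxed mice on anti-PD-1 with enough cells, and 115, 938, 149.95 and 184 in floxed mice on isotype. Its log2 change was +0.05 ± 0.59 (SE) for LysM-Cre against floxed on isotype and +0.27 ± 0.58 for anti-PD-1 against isotype in LysM-Cre mice, the 2 comparisons possible in neutrophils and cluster 3. Csf3r in neutrophils had 1842, 1935, 1406 and 1107 CPM in LysM-Cre mice on anti-PD-1, 2171, 1364, 1639 and 1602 in LysM-Cre mice on isotype, 1637 and 1718 in floxed mice on anti-PD-1 and 1719, 1923, 1244 and 1719 in floxed mice on isotype. The same comparisons gave +0.06 ± 0.18 and -0.09 ± 0.18 for Csf3r, and -0.27 ± 0.23 and +0.08 ± 0.23 for Csf2rb in neutrophils. In cluster 3 they gave +0.05 ± 0.12 and +0.19 ± 0.13 for Csf1r. Csf2ra in monocytes spanned 242 to 282 CPM in LysM-Cre mice on anti-PD-1, 257 to 292 in LysM-Cre mice on isotype, 251 to 283 in floxed mice on anti-PD-1 and 263 to 276 in floxed mice on isotype.

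Of the ligands, Csf1 in CD8 T cells had 52.9, 80.6, 77.1 and 58.3 CPM in LysM-Cre mice on anti-PD-1, against 53.5, 47.4, 48.9 and 32.3 CPM in LysM-Cre mice on isotype. The groups overlapped, although 3 of the 4 mice on anti-PD-1 lay above all 4 on isotype, and the log2 change was +0.50 ± 0.23 (edgeR adjusted p = 0.584), or +0.31 without LysM-Cre isotype mouse 4. CD8 T clusters that differ in Csf1 also differed in their shares of these cells. Cluster 12, the highest in Csf1, held a median of 27.2% of CD8 T cells in LysM-Cre mice on anti-PD-1 and 16.9% in LysM-Cre mice on isotype, and cluster 10, the lowest, 21.9% and 28.9%. The part of these shares in the result was not tested. Kitl in fibroblasts had 41.7, 52.4, 70.5 and 39.5 CPM in LysM-Cre mice on isotype, against 31.9, 32.2, 44.9 and 30.8 CPM in floxed mice on isotype. These overlapped too, with a log2 change of +0.58 ± 0.27 (edgeR adjusted p = 1) that was +0.34 with the margin rule and +0.35 without LysM-Cre isotype mouse 3. On anti-PD-1, Kitl had 32.3, 31.5, 34.3 and 63.4 CPM in LysM-Cre fibroblasts and 73.5, 36.4 and 30.2 CPM in floxed fibroblasts. Flt3 in cDC2, tested where enough mice had the class, gave log2 changes of +0.27 ± 0.24 for LysM-Cre against floxed on isotype and +0.07 ± 0.29 for anti-PD-1 against isotype in floxed mice.

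Csf3r in macrophages did not overlap between the genotypes on anti-PD-1. LysM-Cre mice had 42.4, 46.4, 34.9 and 64.9 CPM and floxed mice 20.4, 23.3, 11.8 and 23.1 CPM. The log2 change was +1.22 ± 0.33 (edgeR adjusted p = 0.248), and DESeq2 gave +1.24 with an adjusted p of 0.0489. In this edgeR comparison 1214 of the 9706 genes tested in macrophages had an unadjusted p of at most 0.05. How many of them did not overlap between the genotypes was not counted. On isotype, LysM-Cre mice had 47.6, 37.3, 54.1 and 22.5 CPM and floxed mice 38.6, 19.9, 38.1 and 33.9 CPM, which overlapped. The interaction was +0.92 ± 0.44 (edgeR adjusted p = 0.7205), so the genotype change was not shown to differ between antibodies. Averaged over antibodies the change was +0.76 ± 0.22 (edgeR adjusted p = 0.503), and +0.91 without LysM-Cre isotype mouse 4. With the margin rule, these changes were +0.69 on anti-PD-1 and +0.38 on average. The 10 neutrophil markers listed summed to a median of 120.04 CPM (92.1 to 153) in macrophages of LysM-Cre mice on anti-PD-1 and 148 CPM (80.2 to 331) in those of floxed mice on anti-PD-1. On isotype they summed to 1133 CPM (141 to 3403) in LysM-Cre mice and 167 CPM (102 to 585) in floxed mice, and their part in these changes was not tested.

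Csf3r in monocytes and cluster 3 also had unadjusted p of at most 0.05. Monocytes had 57.4, 66.4, 68.3 and 91.5 CPM in LysM-Cre mice on anti-PD-1 and 37.6, 42.4, 57.9 and 56.4 CPM in floxed mice on anti-PD-1 (log2 change +0.54 ± 0.20, edgeR adjusted p = 0.6202). Neutrophil markers summed to 451 to 7706 CPM and 345 to 3447 CPM in the same monocytes, and their part was not tested. The interaction in monocytes was +0.59 ± 0.27 (edgeR adjusted p = 1), and +0.33 with the margin rule. In cluster 3, LysM-Cre mice averaged 85.6 ± 27.1 CPM (n = 4) on anti-PD-1 and 54.2 ± 18.3 CPM (n = 4) on isotype (log2 change +0.49 ± 0.23, edgeR adjusted p = 0.728).

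**Figure D5:**
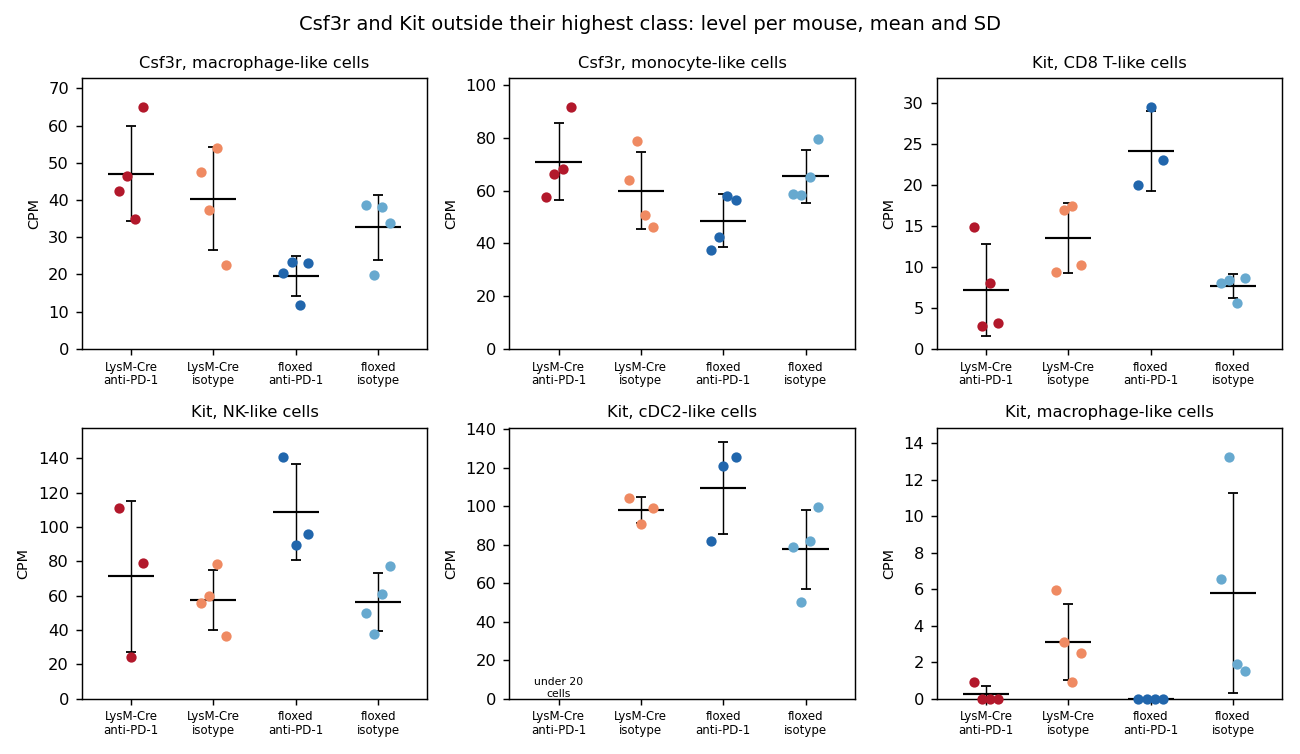
Csf3r in macrophages and monocytes and Kit in CD8 T cells, NK cells, cDC2 and macrophages, in CPM per mouse (points) by condition, with mean and SD (bars). On anti-PD-1, Csf3r in macrophages spans 34.9 to 64.9 CPM in LysM-Cre mice and 11.8 to 23.3 CPM in floxed mice, and Kit in macrophages reaches at most 0.921 CPM.

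Kit in CD8 T cells had 14.9, 2.78, 7.97 and 3.15 CPM in LysM-Cre mice on anti-PD-1, 9.38, 16.9, 17.5 and 10.2 in LysM-Cre mice on isotype, 19.96, 29.4 and 23.001 in floxed mice on anti-PD-1 and 8.06, 8.36, 5.56 and 8.67 in floxed mice on isotype. Floxed mice on anti-PD-1 lay above all other groups. These levels are low and rest on 219 UMIs in 2624 cells. How many of the 7958 genes tested in CD8 T cells set 1 group apart in this way was not counted. The anti-PD-1 change was -0.89 ± 0.42 in LysM-Cre mice and +1.74 ± 0.40 in floxed mice (edgeR adjusted p = 0.598 and 0.948), with an interaction of -2.63 ± 0.57 (edgeR adjusted p = 0.952). LysM-Cre against floxed gave -1.70 ± 0.49 on anti-PD-1 and +0.93 ± 0.29 on isotype (edgeR adjusted p = 0.802 and 1). With the margin rule the interaction was -0.58, the change in floxed mice turned to -0.027 and that between genotypes on anti-PD-1 to +0.22. In LysM-Cre mice, leaving out mouse 1 of the anti-PD-1 group gave -1.65 for the anti-PD-1 change and leaving out its mouse 4 gave -0.59. The 7 NK markers listed summed to medians of 1094 CPM in CD8 T cells of LysM-Cre mice on anti-PD-1, 769.9 in LysM-Cre mice on isotype, 1731 in floxed mice on anti-PD-1 and 911 in floxed mice on isotype, and their part was not tested.

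In NK cells, where Kit was higher, floxed mice had 141, 89.7 and 95.9 CPM on anti-PD-1 and 49.7, 37.5, 60.8 and 77.5 CPM on isotype, without overlap. The log2 change was +0.99 ± 0.32 (edgeR adjusted p = 0.9697). Of the 5840 genes tested there, 242 had an unadjusted p of at most 0.05 (edgeR), and those without overlap were not counted. LysM-Cre mice had 111, 24.1 and 78.7 CPM on anti-PD-1 and 55.6, 59.8, 78.6 and 36.2 CPM on isotype, which overlapped, and the change averaged over genotypes was +0.71 ± 0.25 (edgeR adjusted p = 0.569), or +0.45 when mouse 1 of the LysM-Cre group on anti-PD-1 was left out. Class cDC2 had 104, 90.8 and 98.96 CPM in LysM-Cre mice on isotype, 82.1, 121 and 126 in floxed mice on anti-PD-1 and 78.7, 50.1, 81.8 and 99.6 in floxed mice on isotype. Against floxed mice on isotype, the changes were +0.47 ± 0.20 for LysM-Cre mice on isotype and +0.52 ± 0.22 for floxed mice on anti-PD-1 (edgeR adjusted p = 1 and 0.824), the first being +0.31 without floxed isotype mouse 2.

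Kit and Flt3 in macrophages were below the filter on low counts and were chosen for description after their values were seen. Kit had 1 UMI in 841 macrophages on anti-PD-1 and 85 UMIs in 1743 on isotype. That is 0.0772 CPM (exact 95% Poisson interval 0.00195 to 0.4301) and 4.09 CPM (3.27 to 5.06). Flt3 had 5 UMIs on anti-PD-1 and 68 on isotype. Cells with a Kit UMI numbered 1 on anti-PD-1 and 32 on isotype, 22 of the isotype cells lying in cluster 16, led by the proliferation genes Pclaf, Mki67 and Top2a. Cells with both transcripts numbered 0 on anti-PD-1 and 19 on isotype, of which 8 came from floxed isotype mouse 2, 6 from LysM-Cre isotype mouse 4, 4 from floxed isotype mouse 1, 1 from LysM-Cre isotype mouse 1 and 0 from the other 4 mice on isotype. Per mouse, Kit was 0 on anti-PD-1 except for 0.921 CPM in LysM-Cre mouse 1, and on isotype it was 5.96, 3.08, 0.932 and 2.503 CPM in LysM-Cre mice and 6.56, 13.3, 1.89 and 1.51 CPM in floxed mice. Because Kit was chosen here for this difference, no test is given. Whether cells with both transcripts are macrophages was not tested.

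Csf1r in macrophages averaged 650.4 ± 84.1 CPM in LysM-Cre mice and 567 ± 90.4 CPM in floxed mice (n = 8 each), with overlap and an average log2 change of +0.24 ± 0.09 (edgeR adjusted p = 0.503). CD8 T cells, which have little Csf1r, had 6.62, 5.56, 15.9 and 18.9 CPM in LysM-Cre mice on anti-PD-1, against 20.6, 21.2, 20.3 and 33.9 CPM in LysM-Cre mice on isotype. These did not overlap (log2 change -1.05 ± 0.29, edgeR adjusted p = 0.365), but the change turned to +0.53 with the margin rule. Of the 7958 genes tested there, 660 had an unadjusted p of at most 0.05 (edgeR), and those without overlap were not counted. The 9 macrophage markers summed to a median of 772 CPM (631 to 1030.4) and 1186 CPM (799.7 to 1821) in these groups, and their part was not tested. Further changes of Csf1r in CD8 T cells were -1.03 ± 0.36 and -0.50 ± 0.20 for LysM-Cre against floxed on anti-PD-1 and on average, -0.52 ± 0.20 for anti-PD-1 on average and -1.07 ± 0.40 for the interaction (edgeR adjusted p = 0.835, 0.777, 0.477 and 0.994), which with the margin rule were -0.10, -0.09, +0.53 and -0.01. Leaving out the highest 10% of doublet scores gave -0.70 for anti-PD-1 in LysM-Cre mice and -0.28 on average. In fibroblasts Csf1r averaged 51.8 ± 25.5 CPM in LysM-Cre mice (n = 8) and 32.7 ± 28.5 CPM in floxed mice (n = 7), a log2 change of +1.06 ± 0.43 (edgeR adjusted p = 0.825) that was +0.60 with the margin rule. Macrophage markers in fibroblasts had medians of 2024 and 2593 CPM in LysM-Cre mice on anti-PD-1 and on isotype, against 855 and 1476 CPM in floxed mice on anti-PD-1 and on isotype, and their part was not tested. Csf2ra in fibroblasts averaged 15.05 ± 8.66 CPM on anti-PD-1 (n = 7) and 25.6 ± 13.03 CPM on isotype (n = 8), a change of -0.84 ± 0.35 (edgeR adjusted p = 0.342) that turned to +0.28 with the margin rule.

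CD115, the CSF1R protein, had a lower share of antibody tags on macrophages of anti-PD-1 mice. It had 526, 348, 462 and 322 CPM of antibody tags in LysM-Cre mice on anti-PD-1, 573, 550.1, 704 and 2164 in LysM-Cre mice on isotype, 342, 451, 205 and 328 in floxed mice on anti-PD-1 and 944, 814, 857 and 679 in floxed mice on isotype. No mouse on anti-PD-1 reached any mouse on isotype. Averaged over genotypes, with 373 ± 101 CPM on anti-PD-1 and 911 ± 524 CPM on isotype (n = 8 each), CD115 fell by 1.14 ± 0.23 on the log2 scale (edgeR adjusted p = 0.00462). The change was -0.93 without LysM-Cre isotype mouse 4 and -0.74 with the margin rule. In this comparison 10.1% of all antibody tests passed, and in macrophages 17 of the 87 antibodies tested. In floxed mice alone CD115 changed by -1.26 ± 0.32 (edgeR adjusted p = 0.0364; 2.46% of antibody tests passed), and in LysM-Cre mice it gave -1.02 ± 0.32 (edgeR adjusted p = 0.101; 0% passed). The call in floxed mice was lost with the margin rule (-0.89), without TMM scaling (-1.32) and in 8 of 16 fits that each left out 1 mouse. Those were the fits without any 1 of the floxed mice on anti-PD-1, without floxed isotype mouse 1 or 3, and without mouse 3 of either LysM-Cre group, with changes of -1.43 to -1.09. The change in LysM-Cre mice was -0.59 without LysM-Cre isotype mouse 4 and -0.60 with the margin rule. Control antibodies on macrophages gave +0.44 (hamster), +0.47 (rat IgG1) and -0.16 (rat IgG2b) in the average comparison, with adjusted p of 0.445, 0.252 and 0.721 (edgeR). Csf1r RNA in macrophages gave -0.16 ± 0.09 there (edgeR adjusted p = 0.549). Pooled over all conditions, macrophages had 444 CPM of the hamster, 380.4 of the rat IgG1 and 37.4 of the rat IgG2b control. The rat IgG2a control had 0 counts on macrophages. The mean CD115 value of 373 CPM on anti-PD-1 was thus not above the hamster and rat IgG1 controls, but it was above rat IgG2b and rat IgG2a. Which control matches the CD115 antibody was not tested.

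On fibroblasts CD115 averaged 249 ± 127 CPM on anti-PD-1 (n = 7) and 951 ± 594 CPM on isotype (n = 8), and fell by 1.49 ± 0.45 (edgeR adjusted p = 0.04001). That call was lost with the margin rule (-0.60) and in 10 of 15 fits that each left out 1 mouse (-1.56 to -1.27). Those fits left out mouse 1, 2 or 4 of LysM-Cre mice on anti-PD-1, mouse 1 or 4 of LysM-Cre mice on isotype, mouse 1 or 3 of floxed mice on anti-PD-1, or mouse 1, 2 or 4 of floxed mice on isotype, the smallest change being that without LysM-Cre isotype mouse 4. Changes that did not pass were -0.66 ± 0.21 on CD8 T cells, -0.91 ± 0.38 on NK cells and -0.64 ± 0.25 on monocytes (edgeR adjusted p = 0.0668, 0.137 and 0.159). The change on NK cells, which should lack Csf1r, was -0.11 with the margin rule, and that on monocytes -0.41 without LysM-Cre isotype mouse 4. None of the 3 receptor proteins passed between genotypes, in 24 pairs of antibody and class on isotype (0% of all antibody tests passed), 13 on anti-PD-1 (0.48%) and 13 on average (0%), or in 13 pairs for the interaction (0%). At an unadjusted p of at most 0.05 these edgeR comparisons held 2, 0, 1 and 0 pairs.

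Beyond the 8 genes, 61 others of the same pathways were listed as ligands, receptors, signalling genes, feedback and induced genes, and myeloid transcription factors. Over all tested classes, 0 of 403 tests passed for LysM-Cre against floxed on isotype, 0 of 228 on anti-PD-1 and 0 of 228 on average (edgeR). Anti-PD-1 against isotype gave 0 of 272 in floxed mice, 1 of 291 in LysM-Cre mice and 1 of 228 on average, and the interaction 0 of 228. Tests with an unadjusted p of at most 0.05 numbered 24, 20, 18, 28, 22, 24 and 19 in that order, which is 5.96, 8.77, 7.89, 10.3, 7.56, 10.5 and 8.33% of these tests. Over all genes the same shares were 3.56, 7.38, 6.88, 8.57, 6.49, 10.6 and 4.56%. In macrophages the 21 signalling genes had a median average anti-PD-1 change of -0.02, the 12 feedback genes tested -0.14, and all 9706 genes 0.00. Among values that did not pass are those of Jak2, a kinase used by the GM-CSF and G-CSF receptors, and Cish, an inhibitor induced by STAT5. In floxed macrophages, anti-PD-1 against isotype gave -0.98 ± 0.21 and -2.31 ± 0.53 (edgeR adjusted p = 0.0801 and 0.101). There 1320 of the 9706 genes had an unadjusted p of at most 0.05. Averaged over genotypes, the 2 genes had -0.52 ± 0.15 and -1.60 ± 0.40 (edgeR adjusted p = 0.184 and 0.115). The Jak2 interaction was +0.92 ± 0.31 (edgeR adjusted p = 0.7205). On isotype, LysM-Cre against floxed macrophages gave -0.61 ± 0.20 for Jak2 and -1.51 ± 0.45 for Cish, which did not pass.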

How the data were processed

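Gene, hashtag and surface antibody counts of 2 pools of 8 hashtagged mice were used as deposited. They are raw UMI counts per feature and barcode, not normalized, per the file headers, which name Cell Ranger 6.1.2, whereas the submitters' processing notes name 3.0.1 and mm10. The 2 pools held 15301 and 16614 barcodes with medians of 8475 and 8905 gene UMIs. Filters on UMIs (500 or more), genes (200 or more) and mitochondrial share (10% or less) left 13914 and 14515, and HTODemux (Seurat 5.3.0, quantile 0.99) gave 8408 and 8831 singlets. The margin rule, an alternative, took the highest hashtag where it led by a centred log ratio of 1. Hashtag doublets were removed, and doublets within a mouse were not.

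Clusters came from scanpy 1.11.5 (2000 variable genes without the 8 genes and the pathway lists, 30 components, 15 neighbours, resolution 1.0). A class name needed at least 3 markers found in 10% of cells and a score of 1.0 (log2), a rule set after seeing the files. Sums per mouse and class of at least 20 cells were tested with edgeR 4.0.16 (quasi-likelihood, TMM, filterByExpr, pool as covariate, Benjamini-Hochberg adjustment) where each condition had at least 3 mice; antibodies needed 100 counts. DESeq2 1.42.0, other normalization, filters and clustering genes, no pool term and leaving out each mouse were alternatives. The edgeR gene test of LysM-Cre against floxed on anti-PD-1 was also run on counts simulated from macrophage sums with its own fitted spread. That run does not cover other classes, antibodies or hashtag assignment. Neighbouring classes were compared by sign flips of log2(CPM + 1) differences over mice. Changes were named where the unadjusted p was at most 0.05 or the class was the gene's highest, and the 3 most alike genes were named per member. Some genes that these rules pick are not reported here. The members and lists were chosen with earlier results of these data known. Mice are the replicates, and intervals cover counting error only.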

Additional observations from a re-analysis of the deposited data

Results flagged for a closer look

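Among 193 groups of 4 mice with a value of a gene or protein described here, 14 held a mouse whose gap to its nearest neighbour, divided by the range of the group, was above Dixon's 95% critical value for 4 samples. That is 7.25% of groups, where chance gives about 5%. No explanation was tested for any of them.

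Floxed isotype mouse 2 stood apart in neutrophils, with 938 CPM of Csf1, the other 3 mice having 115 to 184, and 406 CPM of Csf2ra against 254 to 272 in the others. Only 26 neutrophils came from this mouse. Its CD4 T cells had 17.8 CPM of Csf1r, against 84.7 to 94.1. LysM-Cre isotype mouse 4, whose macrophages had Nr3c1 in the floxed range, had 2164 CPM of CD115 tags on macrophages against 550.1 to 704, 1137 on cluster 3 against 197 to 339.98, and 1639 of CD117 tags on macrophages against 646 to 809. Its CD8 T cells had 33.9 CPM of Csf1r, against 20.3 to 21.2.

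Csf1r in macrophages of LysM-Cre anti-PD-1 mouse 1 was 742 CPM against 561 to 589, and CD117 tags there were 1425 CPM against 539 to 679. CD117 tags were 890.4 CPM on macrophages of floxed anti-PD-1 mouse 2, against 684 to 692, and 2316 CPM on monocytes of LysM-Cre isotype mouse 2, against 486 to 646. Csf3r in cluster 3 of floxed isotype mouse 4 was 110.5 CPM, against 54.8 to 58.7. Kitl in fibroblasts was 63.4 CPM in LysM-Cre anti-PD-1 mouse 4, against 31.5 to 34.3, and 44.9 CPM in floxed isotype mouse 3, against 30.8 to 32.2.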

How the results depend on the processing

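The 24 named changes of the 8 genes kept their direction and side of the threshold in 529 of 543 alternatives, passed the threshold in 9 and reversed in 5. None of them had passed at first, so a change counted as kept if its sign held and it still did not pass. This held however small the change became, and most alternatives left out 1 mouse, so the count does not measure how stable the sizes were. All 5 reversals came from assigning hashtags by the margin rule: Csf1r in CD8 T cells with anti-PD-1 in LysM-Cre mice (+0.53) and on average (+0.53), Csf2ra in fibroblasts with anti-PD-1 on average (+0.28), and Kit in CD8 T cells between genotypes on anti-PD-1 (+0.22) and with anti-PD-1 in floxed mice (-0.027). The cause was not tested. Pairs of gene and class called by edgeR, 0 in every comparison, became without the filter on low counts 2 and 4 between genotypes on isotype and on anti-PD-1, 7 and 1 for anti-PD-1 in floxed and in LysM-Cre mice, 2 for the interaction, and 3 and 5 for genotype and antibody on average. DESeq2 called 1 between genotypes on anti-PD-1, and a minimum of 50 cells gave 1 for antibody on average. No share of all genes was set beside the counts of these alternatives. Leaving out each mouse in turn gave 0 to 1 between genotypes on isotype (1 without floxed isotype mouse 2), 0 to 1 for anti-PD-1 in floxed mice and 0 to 2 for antibody on average, and 0 in the other comparisons. Calls of the 3 receptor proteins were 0 by the margin rule and 0 without TMM for anti-PD-1 in floxed mice, and 1 by the margin rule on average. Leaving out each mouse gave 0 to 2 protein calls for anti-PD-1 in floxed mice, 1 to 3 on average and 0 to 1 between genotypes on isotype. With the margin rule, Csf3r in neutrophils averaged 915 CPM, and monocytes held 25.6% of Csf1r, 32.6% of Csf2ra and 35.02% of Csf2rb UMIs. Thinned to 1000 UMIs, shares of cells with a UMI were 15.4% (Csf1, neutrophils), 46.1% (Csf1r, cluster 3), 23.4% (Csf2ra, cluster 3), 26.9% (Csf2rb, neutrophils), 71.8% (Csf3r, neutrophils), 9.76% (Flt3, plasmacytoid dendritic cells), 60.1% (Kit, mast cells) and 4.46% (Kitl, fibroblasts), as thinning removes counts. The planned removal of Scrublet doublets was not run, because its automatic threshold called 1 of 28429 cells; leaving out the highest 10% of Scrublet scores and the barcodes seen in both pools were added after seeing the data. No paired analysis was possible because the hashtagged mice carry no replicate number shared across conditions.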
